A study of Homo sapiens with 18 samples.

Results

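The 37 genes described here encode the proteins that copy DNA and supply its building blocks, and all 37 were found by symbol in the 22336 rows of the expression table for LNCaP cells. LNCaP is a human prostate adenocarcinoma cell line. The 18 libraries cover enhancer activity (WHG-STARR-seq), open chromatin (ATAC-seq) and gene expression (mRNA-seq). For ATAC-seq, 3 cultures received trichostatin A (TSA, a histone deacetylase inhibitor) at 100 ng/ml for 24 h and 3 received the DMSO vehicle for 24 h. The mRNA-seq had 3 TSA, 3 vehicle and 3 untreated cultures. For WHG-STARR-seq, 1 plasmid library of genomic fragments served as the input and 2 replicates of transfected cells, harvested after 72 h, as the output. The cells for TSA and vehicle, and the transfected cells after transfection, were kept in medium with charcoal-stripped serum, which is low in steroids. All values come from 1 cell line, and an enhancer in WHG-STARR-seq is a fragment tested on a plasmid, outside its own chromatin.

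DNA replication begins with licensing, when the origin recognition complex, CDC6 and CDT1 load the MCM helicase on DNA. CDC45 and the GINS complex then activate the helicase, DNA polymerase alpha with primase lays down primers, and DNA polymerases delta and epsilon extend them while held on the template by the PCNA ring. Many of these genes are transcribed as cells enter S phase under E2F factors, which are held in check by the retinoblastoma protein.

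The values used were pooled or averaged over libraries, with none per library, so no value below carries an error between replicates. No test between TSA and vehicle was run, and the authors' own comparison was not used. The depth of the mRNA-seq and ATAC-seq libraries is unknown here. Among luminal prostate markers the average levels were 4.41 for KLK2, 8.04 for KLK3 and 11.17 for FOLH1 in log2 CPM, the reads of a gene scaled to the library total. The white blood cell markers PTPRC, CD3E and CD14 lay at -1.89, -2.62 and -2.33 log2 CPM respectively. The basal markers were unequal, with KRT5 at 6.23, KRT14 at -0.86 and TP63 at -1.89, and so were the stromal markers, with COL1A1 at 6.77, COL1A2 at 0.37 and DCN at -2.21.

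The promoters of these genes were first read for the sequence bound by E2F factors. An E2F word was any of TTTCCCGC, TTTGGCGC, TTTCGCGC or TTTGCCGC on either strand, from 250 bases before to 50 bases after the start of the longest coding transcript. Of the 37 promoters, 14 held such a word (37.8%), against 3.81% of the promoters of all 21474 genes with an annotated start and 4.74% of those of the 14376 genes averaging at least 1 CPM. The 14 stretches are shown because, of the 7 motifs searched, the E2F word differed most in share from all promoters in relative terms. Each is read 5′ to 3′ on the strand of its gene in GRCh37, with the E2F word in capitals.
CDC6, chr17:38444128-38444155, plus strand: gccattcggaTTTGGCGCgagcgcggct
CDT1, chr16:88870152-88870179, plus strand: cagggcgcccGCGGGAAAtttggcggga
GINS1, chr20:25388304-25388331, plus strand: gctttgttcgGCGCCAAAgcgcggagcg
GINS2, chr16:85722574-85722601, minus strand: tctcgccgtgGCGGGAAAacggcggccg
POLA1, chrX:24711888-24711915, plus strand: tcatcacaggGCGCCAAAcgcgcgtccg
POLA2, chr11:65029370-65029397, plus strand: tggctcccggTTTCGCGCatgcgtgcac
POLD1, chr19:50887615-50887642, plus strand: gtaggctgtgGCGGGAAAcgctgtttga
POLD3, chr11:74303624-74303651, plus strand: agcaaagacgTTTCCCGCcggcgggagc
POLE, chr12:133263929-133263956, minus strand: gggtgggagcGCGCCAAAtttctcccct
POLE2, chr14:50154920-50154947, minus strand: tgcggcggtgGCGCCAAAtcgcaaatat
PCNA, chr20:5107310-5107337, minus strand: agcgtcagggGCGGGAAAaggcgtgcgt
RFC3, chr13:34392221-34392248, plus strand: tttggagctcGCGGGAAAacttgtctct
LIG1, chr19:48673698-48673725, minus strand: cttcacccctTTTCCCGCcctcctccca
TYMS, chr18:657604-657631, plus strand: cgggacggccGCGGGAAAaggcgcgcgg

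The form TTTCCCGC or its reverse complement was present in 8 of the 14 genes, TTTGGCGC in 5 and TTTCGCGC in POLA2. The words lay close to the start. Counted in bases from the start, negative upstream, the word began at -5 in POLE2, -18 in POLE, -31 in GINS2, -35 in CDT1, -39 in TYMS, -51 in GINS1, -53 in POLA2 and -55 in both PCNA and RFC3. In CDC6 and POLD3 it began at base 8 of the transcript and in POLD1 at base 22. The words of POLA1 and LIG1 were farther away, at -137 and -234. In all, 12 of 14 words began between 60 bases before and 50 bases after the start, a window chosen after the positions were seen, against 35.8% of the 863 words in all promoters.

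**Figure D1:**
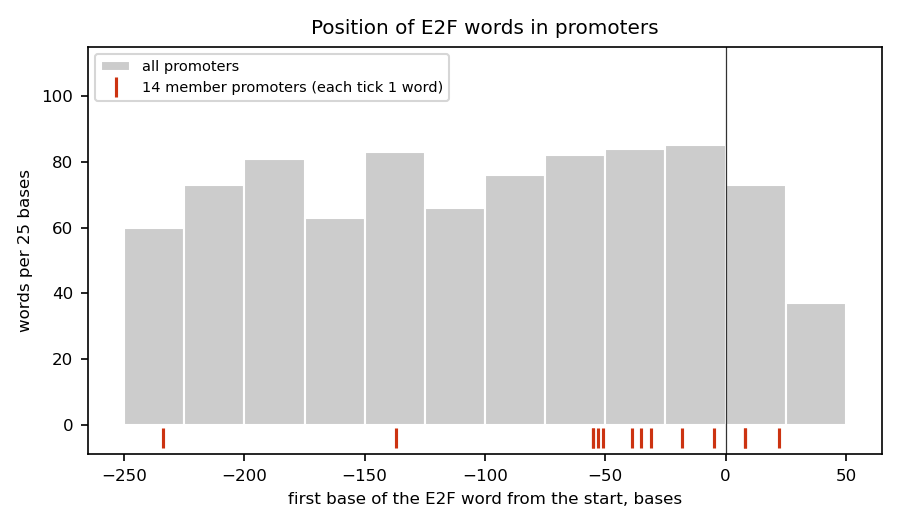
Position of E2F words in promoters. The horizontal axis gives the first base of each word from the start in bases and the vertical axis the number of words per 25 bases over all promoters (grey bars, 863 words). Red ticks mark the 14 words of the replication genes, of which 12 lie between -60 and 50 and those of CDC6 and POLD3 fall on the same base.

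The E2F words are given here by role as a description only, since each role holds no more than 3 to 9 genes. They were present in 6 of the 9 polymerase and primase genes, namely POLA1 and POLA2 of polymerase alpha, POLD1 and POLD3 of polymerase delta, and POLE and POLE2 of polymerase epsilon, and in neither primase gene. Licensing had 2 of 3 (CDC6 and CDT1), helicase activation 2 of 5 (GINS1 and GINS2), the clamp and its loader 2 of 6 (PCNA and RFC3), primer removal and ligation 1 of 3 (LIG1), and nucleotide synthesis 1 of 5 (TYMS, thymidylate synthase). None of the 3 genes of replication protein A and none of the 3 chromatin assembly and histone message genes held one in this window. No match says only that these letters were not found there, and a match is not a binding site. RPA2 held an E2F word elsewhere in the enhancer over its promoter, described below. For RPA3 the window lay at a start without an ATAC-seq peak in either list. The enhancer over another start of RPA3 held no E2F word.

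Other promoter motifs were nearer to the share in all genes. The CCAAT box (CCAAT), the site of NF-Y, was present in 19 of the 37 promoters (51.4%) against 35.1% of all, and the GC box (GGGCGG) in 24 (64.9%) against 55.2%. A TATA box (TATAAA) was present in GINS3, POLD3 and TK1 (8.11%, against 10.3% of all promoters). The cell cycle homology region (TTTGAA or TTCGAA), found in promoters of mitotic genes, was present in POLD1 and RRM1 (5.41% against 13.7%), and in 17 of 20 mitosis genes examined the same way. The cyclic AMP response element (TGACGTCA) was present in RFC1 and RFC3 (5.41% against 2.37%) and the ETS word (CCGGAAGT) in 3 genes (8.11% against 5.27%). Among genes averaging at least 1 CPM the CCAAT box was in 35.3%, the GC box in 66.7% and the TATA box in 6.87%. The cell cycle homology region was in 11.2% of these, the cyclic AMP element in 3.01% and the ETS word in 7.51%. Against them the GC box was slightly rarer in the 37 and the TATA box slightly more frequent. The E2F word was present in 1 of those 20 mitosis genes, CDK1. It was present in 7 of 9 MCM genes, in 6 of 20 other DNA replication genes and in 1 of 9 further nucleotide synthesis genes, DCK.

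Some promoters of the replication genes lay back to back with other genes. A protein-coding gene on the other strand started within 1000 bases upstream in 9 of the 37 (24.3%) against 10.7% of all genes and 14.5% of those averaging at least 1 CPM, a comparison added after the data were seen. The share was 44.4% of the 9 MCM genes and 35.0% of the 20 other DNA replication genes. The shortest gaps were 75 bases between PRIM1 and HSD17B6, 103 between RPA1 and SMYD4, 109 between FEN1 and TMEM258 and 129 between TK1 and AFMID. PCNA and CDS2 were 382 bases apart and LIG1 and ZSWIM9 456. The accessibility of such a region belongs to both genes. In 11 of the 37 genes a peak counted below also held the start of another gene of the table.

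Gene expression was compared between genes as the average log2 CPM in the authors' table less the log2 of the exon length in kb. That length covers the merged exons of the GENCODE transcripts used here, whereas the authors counted reads on RefSeq genes. All 37 genes averaged at least 1 CPM, as did 66.9% of all genes. That average mixes TSA and vehicle libraries, and possibly untreated ones, so it is no level of untreated cells. The median over the 37 was 2.55 log2(CPM per kb), against 1.42 for all genes and 2.89 for genes averaging at least 1 CPM. They therefore lay above most genes of the table, 29 of 37 over its median, and near the middle of the expressed genes, with 15 of 37 above the median of those. RNA came from whole cultures, so fewer cells in S phase and less RNA per cell cannot be told apart.

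POLD2, an accessory subunit of polymerase delta, had the highest level, 5.82 log2(CPM per kb), and stood at the percentile 94.5 of all genes. PCNA, the sliding clamp, followed at 5.59, then RPA1, the large subunit of the single-strand binding protein, at 4.87. RRM1, the large subunit of ribonucleotide reductase, was at 4.75 and SLBP, which binds the stem-loop of histone messages, at 4.62. These 5 genes serve 5 different roles.

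At the other end, POLE2, a subunit of polymerase epsilon, was at 0.23 log2(CPM per kb) and GINS4 at 0.25, the percentiles 38.6 and 38.7 of all genes. PRIM2, the large primase subunit, was at 0.90, POLA1, the catalytic subunit of polymerase alpha, at 1.14 and GINS3 at 1.23. The rank of GINS4 rests in part on its exon length of 5431 bases. In log2 CPM it was at 2.69, above GINS3 at 2.49 and PRIM2 at 2.54. Subunits of polymerase delta, and those of polymerase epsilon, did not share a level. Within polymerase delta POLD2 was at 5.82, POLD1 at 2.16 and POLD3 at 1.31, and within polymerase epsilon POLE was at 2.87 and POLE2 at 0.23. Replication protein A was closer, with RPA1 at 4.87, RPA2 at 4.07 and RPA3 at 2.76.

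By role, the medians in log2(CPM per kb) were 4.53 for nucleotide synthesis, 4.07 for single-strand binding, 3.80 for primer removal and ligation and 3.65 for the clamp and its loader. They were 2.79 for chromatin assembly and histone messages, 1.87 for polymerases and primase, 1.69 for origin licensing and 1.38 for helicase activation. Salvage and synthesis of thymidine nucleotides were close to each other, with TK1 at 4.53 and TYMS at 4.59. RRM2, the small subunit of ribonucleotide reductase, was at 2.55, below its partner RRM1. The 14 genes with an E2F word had a median of 1.89 and the 23 without one a median of 3.48, as a description only.

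**Figure D2:**
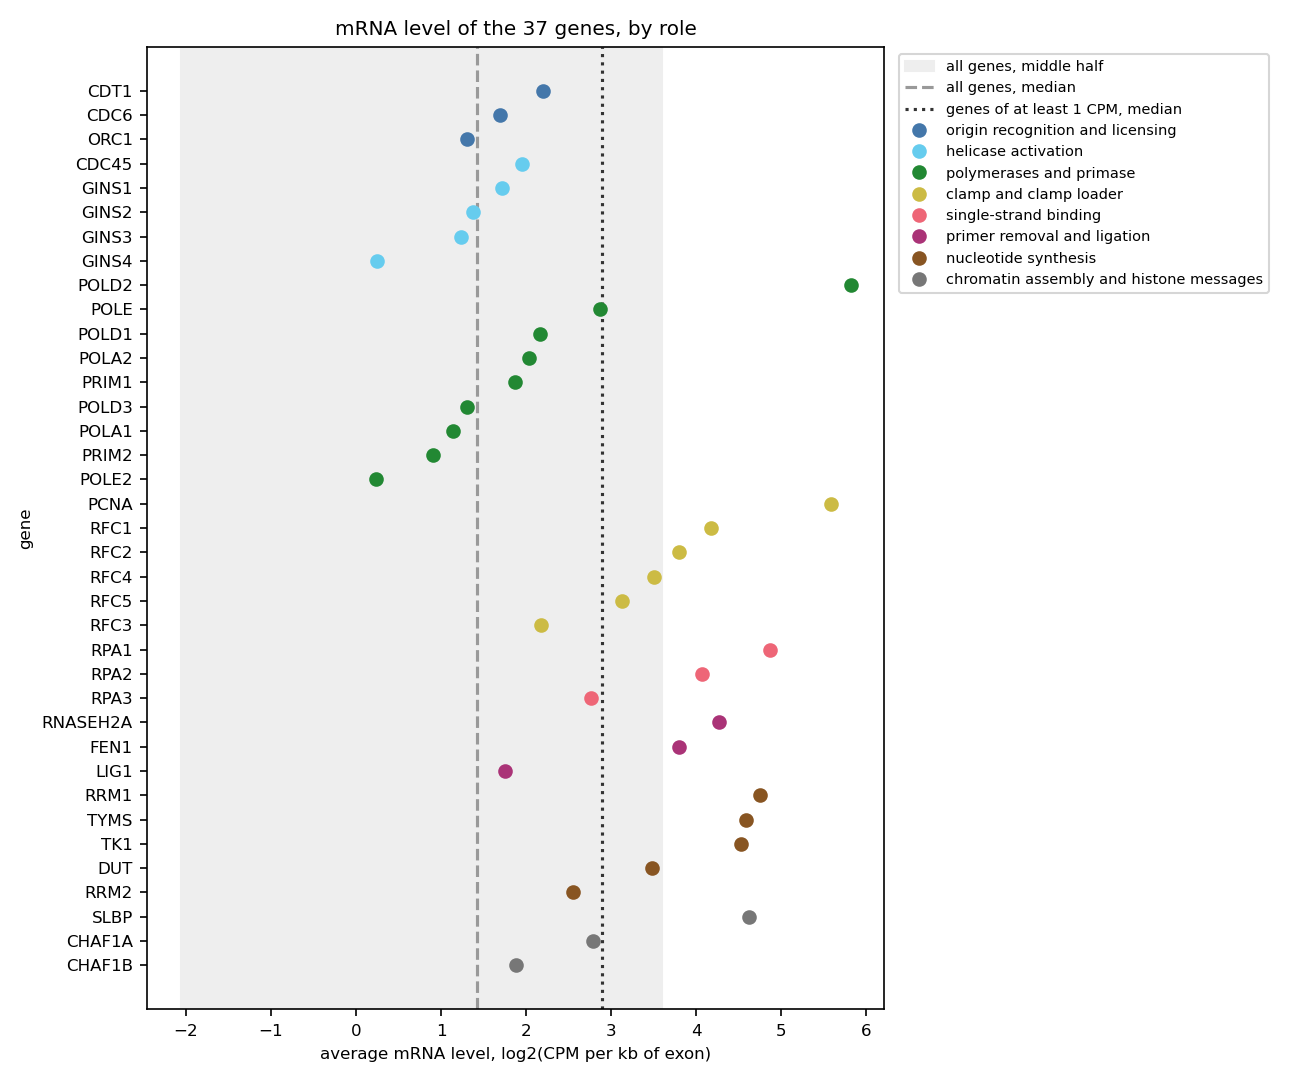
Average mRNA level of the 37 genes in log2(CPM per kb of exon), with 1 dot for each gene, coloured and grouped by role. The grey band spans the quartiles of all genes (-2.06 to 3.60), the dashed line their median of 1.42 and the dotted line the median of 2.89 of genes averaging at least 1 CPM. Most nucleotide synthesis genes sit to the right and helicase activation genes to the left.

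Some of these levels are uncertain because of shared sequence. Exons of 14 of the 37 genes overlapped an exon of a gene on the opposite strand, among them TYMS with ENOSF1, RFC4 with EIF4A2 and PRIM1 with HSD17B6. The library kit keeps the strand, but no source read here says whether the authors' counts used it. Pseudogenes named after the gene were annotated for 11 of the 37, with 8 for DUT, 3 each for PCNA, RPA2 and RRM2 and 2 each for TYMS and RPA3.

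The next question was whether the starts of these genes were accessible, and whether the pooled ATAC-seq lists of TSA and vehicle differed there. A start peak was a peak from 1000 bases before to 100 bases after any annotated start of the gene. In vehicle 35 of 37 genes had a start peak, against 55.4% of all genes and 74.9% of genes averaging at least 1 CPM. In TSA all 37 did, against 59.8% of all genes and 79.4% of those expressed. The scores were Fseq densities, and no source read here gives their scaling between the lists.

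The 2 genes without a vehicle peak were PRIM1, the catalytic primase subunit, and POLD3. In TSA the start peak of PRIM1 (chr12:57145626-57146535) scored 0.0404 and that of POLD3 (chr11:74303362-74304101) scored 0.0415. Both lay just above 0.0390, the lowest score in the vehicle list, so a vehicle signal slightly lower would not have been listed. No gene of the 37 had a start peak in vehicle alone. Over all genes 5.71% had a start peak in TSA alone and 1.32% in vehicle alone.

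Among the 35 genes with both peaks the median score ratio of TSA over vehicle was 1.14, against 1.15 over the 11607 genes with both. The ratio was above 1 in 28 of 35 genes (80.0%), against 75.9% of all. A ratio past 1.5 upwards was present in 3 of the 35, against a background of 12.1%, and past 1.5 downwards in none, against 0.638%. The median and both shares lay near or below those of all genes.

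The 3 genes past 1.5 came from 3 different roles. CDT1, which brings the MCM helicase to origins, had a vehicle score of 0.0411 and a TSA score of 0.0794, a ratio of 1.93. RFC4, a subunit of the clamp loader, had 0.0404 and 0.0709, a ratio of 1.75. POLE, the catalytic subunit of polymerase epsilon, had 0.0868 and 0.136, a ratio of 1.56. The vehicle scores of CDT1 and RFC4 were near the lowest in that list, and the POLE peak also held the start of PXMP2.

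The 3 lowest ratios were those of POLE2, TYMS and GINS4. The POLE2 score was 0.0677 in vehicle and 0.0484 in TSA, a ratio of 0.716. TYMS had 0.0947 and 0.0813, a ratio of 0.858, and GINS4 0.341 and 0.305, a ratio of 0.893. Of the other subunits of polymerase epsilon, POLE was at 1.56, and POLE3 and POLE4, which are not among the 37, at 1.17 and 1.52. The lists pool the cultures of a condition, so these ratios carry no spread between cultures.

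The strongest start peaks belonged to PCNA, GINS4 and RPA3. PCNA scored 0.390 in vehicle and 0.373 in TSA over the start it faces CDS2 from, and 0.253 and 0.269 at its other annotated start inside the gene. RPA3 scored 0.312 and 0.349 at an internal start, and had no peak at the start of its longest coding transcript. GINS1 had 0.111 and 0.141 (a ratio of 1.27) at a far upstream start whose peak also held the start of ABHD12, and 0.0490 and 0.0443 (a ratio of 0.904) at its main start. At the weak end LIG1 scored 0.0399 in vehicle and 0.0503 in TSA, and FEN1 0.0402 and 0.0472. RRM2 scored 0.0394 and 0.0495 at its main start, and 0.0404 and 0.0463 at an upstream start. The highest start peak scored under 0.05 in 9 genes in vehicle and 6 in TSA. The share of all genes under that score was not computed, so these counts have no background. Over all genes with a start peak the median score was 0.0837 in vehicle and 0.0944 in TSA.

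**Figure D3:**
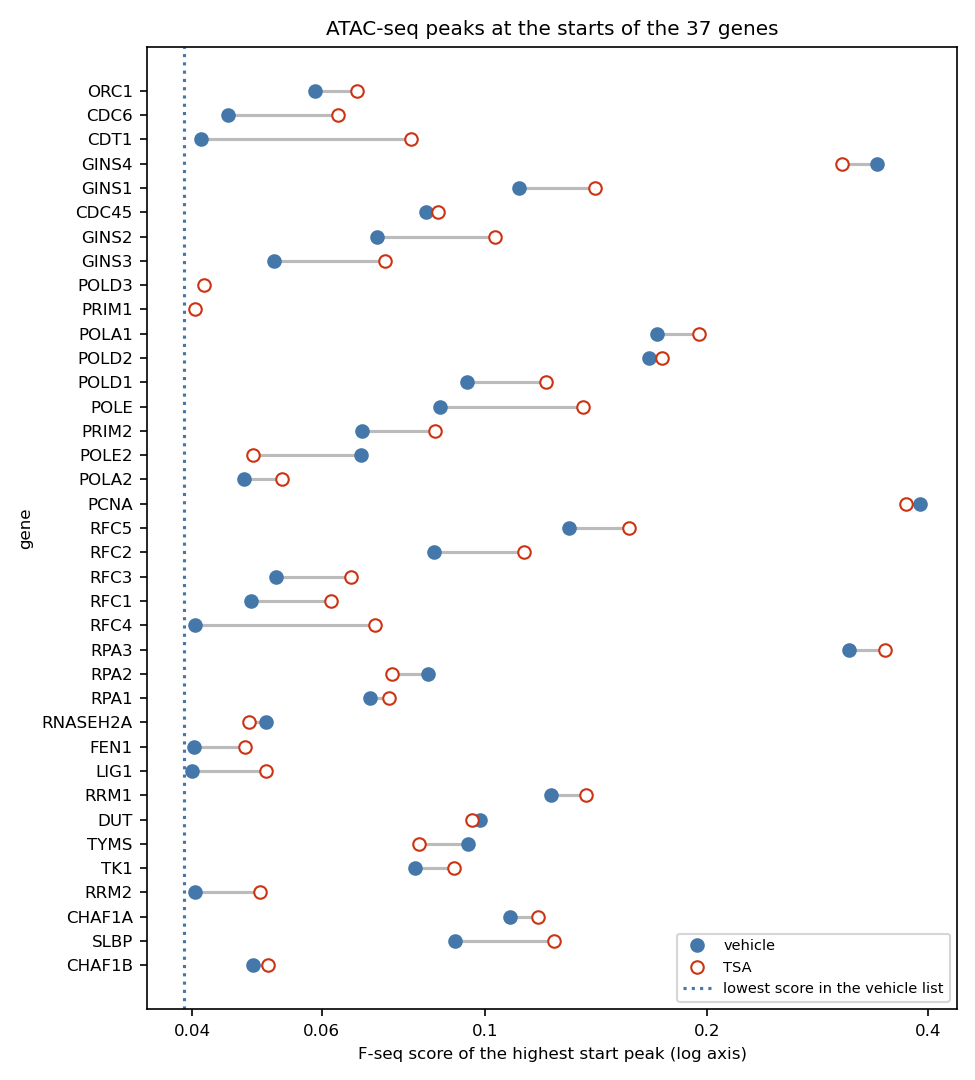
ATAC-seq scores at the starts of the 37 genes, on a log axis, grouped by role. Filled circles give the highest start peak in the pooled vehicle list and open circles that in the pooled TSA list, with a line joining the 2. The dotted line marks the lowest score in the vehicle list, 0.0390. CDT1 and RFC4 have the longest lines to the right and POLE2 the longest to the left, and PRIM1 and POLD3 have only an open circle.

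Level and accessibility were set side by side for a few genes, as a description. PCNA had the strongest start peak and the second highest level per kb, and POLD2, highest in level, had a vehicle score of 0.167. GINS4 had the second strongest start peak in vehicle and the second lowest level per kb of the 37. RPA1, which only POLD2 and PCNA exceeded in level, had start peaks of 0.0698 in vehicle and 0.0740 in TSA, under the medians of the 37 genes, 0.0803 and 0.0813.

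The WHG-STARR-seq lists were then read for active enhancers, measured on a plasmid, that overlapped these promoter regions. A promoter without a listed enhancer may still have had such activity. The fold is that of the authors' peak caller at the summit, output fragments over scaled input with 1 added to each. It is therefore slightly below the plain quotient of the counts printed here. The scaled input was recovered from the fold and p-value and need not be the input at the site itself. Enhancers nearest POLD3, DUT and POLA1, for example, all gave 8.40. An active enhancer lay over the promoter window, from 1000 bases before to 100 after a start, in 15 of the 37 genes (40.5%), against 24.5% of all genes and 30.3% of those averaging at least 1 CPM. All 15 genes had there an active and open enhancer, one that overlapped a DNase I site of LNCaP cells. RRM1 also had an active and closed one at an internal start. Intervals given below are 95% exact Poisson intervals of the output fragments and cover counting error only. They take the counts as independent, although the authors kept repeats of a fragment from separately indexed libraries, so they may be too narrow.

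By role, the clamp and its loader had an enhancer in 5 of 6 genes, licensing and single-strand binding each in 2 of 3, nucleotide synthesis in 2 of 5, primer removal and ligation in 1 of 3 and helicase activation in 1 of 5. The clamp genes were PCNA at 8.45-fold, RFC5 at 5.17, RFC1 at 4.98, RFC2 at 4.88 and RFC3 at 4.26, and RFC4 had none. The median fold of enhancers over a promoter window of any gene was 3.16, which lay below the counting interval of each of these 5. None of the 3 chromatin assembly and histone message genes had a promoter enhancer, and only PRIM2 and POLD1 of the 9 polymerase and primase genes did.

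LIG1, the ligase that seals Okazaki fragments, had the strongest promoter enhancer, at chr19:48673235-48673898 of hg19, with its centre in an exon of LIG1. Its fold was 10.6, from 146 output fragments over a scaled input of 12.8 (interval 8.99 to 12.5). It ranked 904 among the 94527 active enhancers. It contained the E2F word of LIG1 shown above and 5 GC boxes. Its start peak was among the weakest of the set (0.0399 in vehicle).

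The PCNA enhancer (chr20:5100381-5101239) lay in an intron of PCNA over the internal start, not over the start shared with CDS2. It had 249 output fragments over 28.6, an interval of 7.44 to 9.57. A second open enhancer of 2.48-fold lay at chr20:5099401-5099935, so the stronger ATAC-seq peak of PCNA held no enhancer and the weaker peak lay over both.

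The 4 enhancers of the clamp loader each had their centre within 133 bases of a start. RFC5 (chr12:118454320-118454881) had 118 output fragments over 22.0 (interval 4.29 to 6.18). RFC1 (chr4:39367539-39368160) had 104 over 20.1 (4.08 to 6.02). RFC2 (chr7:73668306-73669025) had 147 over 29.3 (4.13 to 5.73), and RFC3 (chr13:34391940-34392487) had 54 over 11.9 (3.22 to 5.54). Their intervals overlapped each other, so the 4 could not be ordered at this depth. The RFC1 and RFC3 enhancers each held a cyclic AMP response element, and that of RFC3 2 E2F words.

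Parts of the PCNA, RFC5 and RFC1 enhancers that lie outside every annotated exon are shown to let these promoter enhancers be compared. The stronger one of LIG1 is not shown, as it had no long stretch outside exons. Each is read 5′ to 3′ on the strand of the gene in GRCh37, and capitals mark the CCAAT box and the GC box on either strand.
PCNA, chr20:5100711-5100910, minus strand: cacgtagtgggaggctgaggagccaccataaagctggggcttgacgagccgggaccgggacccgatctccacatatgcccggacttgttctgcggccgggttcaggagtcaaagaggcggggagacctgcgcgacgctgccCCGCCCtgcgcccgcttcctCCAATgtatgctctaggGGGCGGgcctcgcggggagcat
RFC5, chr12:118454320-118454505, plus strand: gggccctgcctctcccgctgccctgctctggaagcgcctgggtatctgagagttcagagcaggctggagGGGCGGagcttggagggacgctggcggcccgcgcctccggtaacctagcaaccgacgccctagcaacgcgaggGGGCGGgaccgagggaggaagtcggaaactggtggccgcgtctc
RFC1, chr4:39367659-39367858, minus strand: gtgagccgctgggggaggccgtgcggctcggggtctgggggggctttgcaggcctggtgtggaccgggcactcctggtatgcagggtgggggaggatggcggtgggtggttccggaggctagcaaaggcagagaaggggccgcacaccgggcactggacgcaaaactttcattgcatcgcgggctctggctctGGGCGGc

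The PCNA stretch holds a CCAAT box between GC boxes, the RFC5 stretch 2 GC boxes and the RFC1 stretch 1. None of the 3 stretches holds an E2F word. The like stretch of the RFC2 enhancer, not printed, held no CCAAT box, GC box or E2F word. The stretches therefore do not stand for all the stronger promoter enhancers, since that of LIG1 held an E2F word and GC boxes.

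The other 9 genes had weaker promoter enhancers. POLD1 had 3.40-fold (92 output fragments over 26.3), RPA3 3.11-fold (86 over 26.9) and GINS4 2.98-fold (85 over 27.8). ORC1, the large subunit of the origin recognition complex, had 2.43-fold, with its centre nearest the start of PRPF38A, the gene it faces. CDC6 and RPA2 each had 2.38-fold, PRIM2 2.33-fold and DUT, which removes dUTP, 2.20-fold. RRM1 had 2.32-fold in its open enhancer at the main start and 3.51-fold (interval 2.70 to 4.49) in the closed one at the internal start. The intervals of ORC1 (1.94 to 3.02), CDC6 (1.79 to 3.09), RPA2 (1.86 to 3.01), PRIM2 (1.75 to 3.04) and DUT (1.62 to 2.92) and of the open enhancer of RRM1 (1.74 to 3.03) all lay below 3.16.

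**Figure D4:**
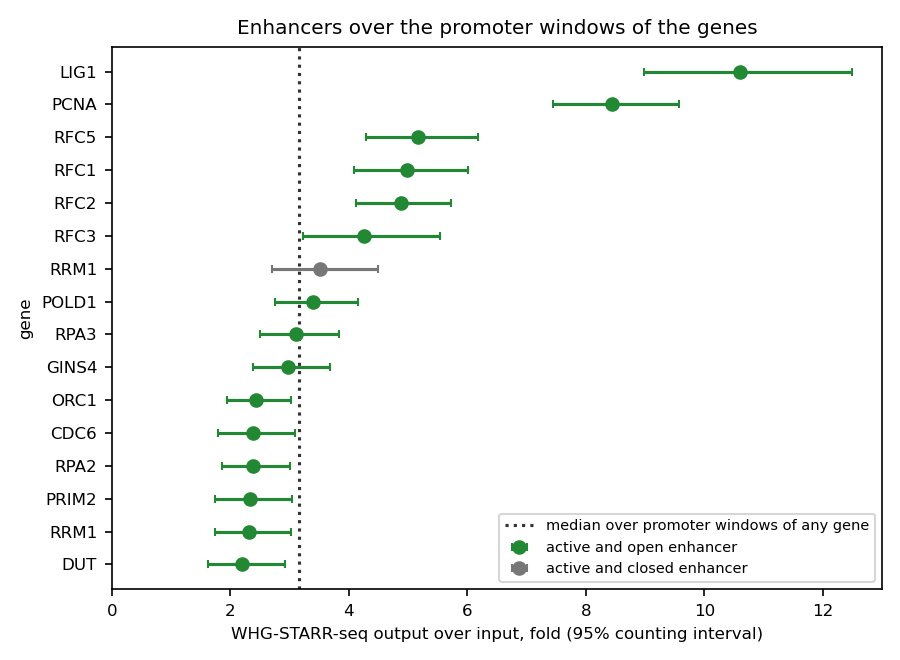
WHG-STARR-seq fold of output over input for the 16 enhancers over promoter windows of the 15 genes, with 95% counting intervals as bars. Green points are active and open enhancers and the grey point is the active and closed enhancer of RRM1, and the dotted line is the median of 3.16 for enhancers over a promoter window of any gene. LIG1 and PCNA lie apart from the rest, and RFC5, RFC1, RFC2 and RFC3 follow with overlapping intervals.

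Promoter enhancers and E2F words coincided in part. Of the 14 genes with an E2F word 5 had a promoter enhancer (CDC6, LIG1, PCNA, POLD1 and RFC3), and of the 23 without a word 10 had one. The word of PCNA lay at the start shared with CDS2, outside its enhancer, which held none. In CDC6, LIG1, POLD1 and RFC3 the word lay inside the enhancer. The comparison lists varied in both. The 9 MCM genes, 7 with an E2F word, had no promoter enhancer, whereas 10 of the 20 mitosis genes, 1 with an E2F word, had an enhancer there. The 20 other DNA replication genes had 6, led by TIMELESS at 4.77-fold, and an E2F word in 6 as well. Of the 9 further nucleotide synthesis genes only RRM2B had an enhancer there, at 2.40-fold, and only DCK an E2F word. Genes with a promoter enhancer had a median level of 2.76 log2(CPM per kb) and the 22 without one 2.37.

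Each enhancer was also assigned to the gene with the nearest start, among the 21474 genes of the expression table with an annotated start. The 37 genes were nearest to 129 enhancers, 21 open and 108 closed. With the starts of all annotated genes they were nearest to 56, of which 18 were open. The other enhancers counted here thus had a nearer start of a gene outside the expression table. The open share of 16.3% compared with 12.7% over all 94527 enhancers and 15.2% of those nearest genes averaging at least 1 CPM. The median number per gene was 2.00, the same as over all genes, and 8 of the 37 (21.6%) had none, against 20.8% of all. Of the 21 open enhancers 15 lay within 1 kb of a start, where 32.6% of all open enhancers did, and of the 108 closed ones 1 did, where 1.62% of all closed enhancers did. The centres of 19 enhancers were in exons, 64 in introns and 46 between genes.

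RFC3 had the most, 33 enhancers between -213 and 539 kb from its start (negative upstream), of which 21 were between genes. RRM1 had 12, DUT 11 and RPA3 10. The counts follow the room around a gene as well as its enhancers, since every enhancer goes to some gene. Within 50 kb of a start the 37 genes had 82.

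Closed enhancers around RFC3 included those of 7.33-fold at 231 kb from the start (chr13:34622454-34623271, between genes) and of 6.80-fold at -139 kb from it (chr13:34253215-34254064). The first had 75 output fragments over 9.37 (interval 5.78 to 9.16) and the other 113 over 15.8 (5.61 to 8.16). Neither overlapped an ATAC-seq peak in vehicle or TSA.

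Of the 108 closed enhancers 2 lay in a vehicle peak and 1 in a TSA peak, where 1.68% and 2.65% of all closed enhancers did. Both were near RRM1. The closed enhancer at chr11:4117132-4117667, 1.37 kb downstream of the RRM1 start, overlapped the edge of the vehicle start peak (0.123) and no TSA peak. That at chr11:4204175-4204659, 67.1 kb downstream, overlapped peaks of 0.0961 in vehicle and 0.114 in TSA. No closed enhancer of these genes lay in a TSA peak without also lying in a vehicle peak. The share of all closed enhancers that did so was not computed. Of the 21 open enhancers 17 lay in a peak in each list. CDT1, with the highest score ratio, had an open enhancer of 1.89-fold in its own intron, 1.45 kb downstream of the start and inside the same peak.

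**Figure D5:**
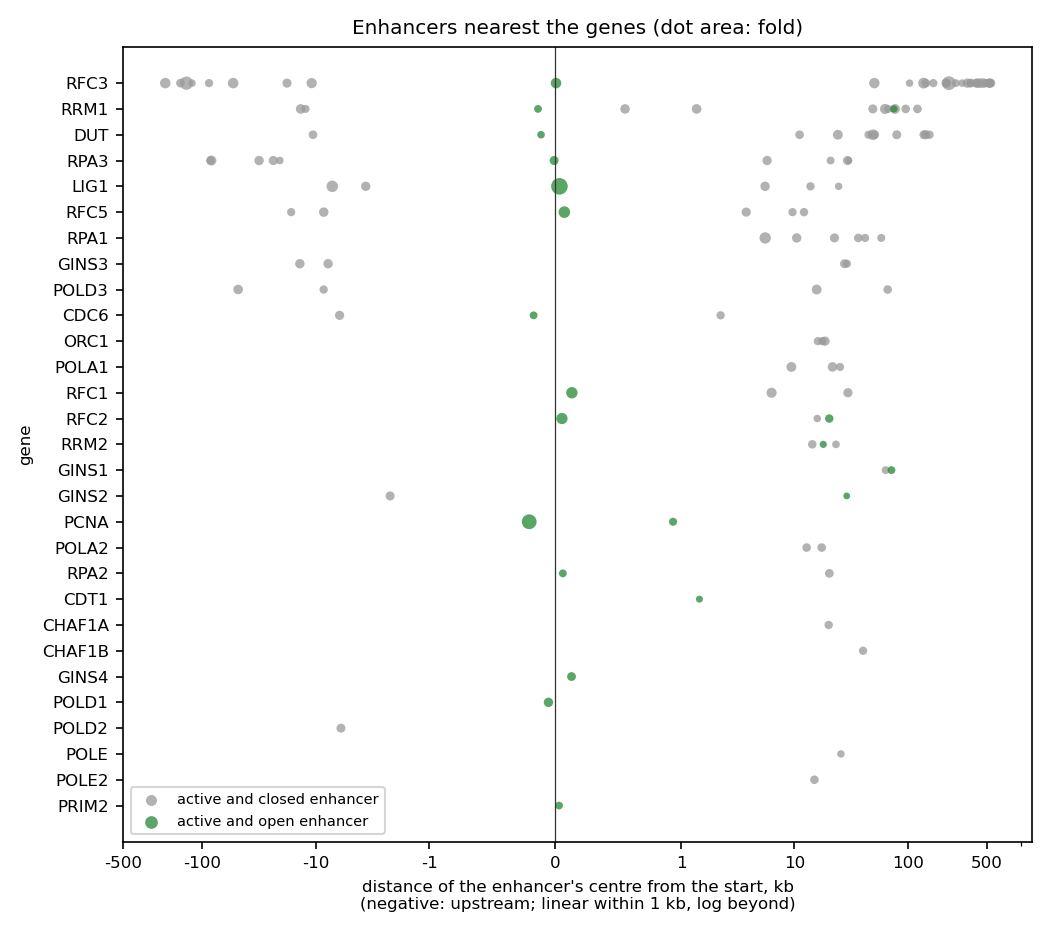
Enhancers nearest the genes, among genes of the expression table, with 1 row for each of the 29 genes that had any. The horizontal axis is the distance of the enhancer's centre from the start in kb, linear within 1 kb and log beyond, negative upstream, and the dot area is proportional to the fold. Green dots (open) gather at the start and grey dots (closed) lie mostly 10 kb or more away. The strongest closed enhancer is not drawn.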

How the data were processed

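The members and the gene lists were chosen with earlier results of these data known. The authors aligned WHG-STARR-seq reads with Bowtie on hg19, removed duplicate fragments with Picard, pooled the 2 output replicates and called enhancers with MACS2 against the input, and the deposited lists give the fold (a ratio), the −log10 p-value and −log10 q-value. Each open enhancer also has a deposited score for its DNase I site. ATAC-seq reads went through Bowtie, cutadapt, Bowtie2 and Picard, and the authors shifted read starts for the transposase, and called peaks with Fseq, and the deposited lists, cut to 38813 vehicle and 40995 TSA peaks, give a score per peak over pooled libraries. TopHat aligned the mRNA-seq reads, which the authors counted per gene. The authors' edgeR tables give an average log2 CPM per gene or merged site, used here, and a log2 fold change, likelihood ratio and p-value of TSA against vehicle, which are the authors' comparison and were not used. The libraries averaged are not listed in the tables. No source used here gives the versions of these tools.

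Genes were matched to the GENCODE annotation of GRCh37, the same build as hg19, by symbol or RefSeq synonym, which gave 59527 start sites of 21474 genes. Overlap meant at least 1 shared base. An enhancer belonged to the nearest of these start sites. Some items are not reported here. Output fragments were recovered from the deposited fold and p-value and came out within 0.000501 of a whole number for all 129 enhancers. They are not molecules marked by identifiers. The authors removed duplicates within separately indexed libraries of each replicate and kept repeats between these, so a fragment can count more than once. Overlap, nearest start, recovery and motif search were tested on simulated data. Python 3.11.15, numpy 2.4.6, pandas 2.3.3, scipy 1.17.1, pysam 0.24.0, samtools 1.23.1 and matplotlib 3.10.9 were used. Named were all genes with a promoter enhancer or an E2F word, those with a start peak in only 1 list, the 5 highest and 5 lowest levels, the 3 highest and 3 lowest score ratios, those nearest the 5 strongest enhancers, the 3 with the most enhancers, and at least 1 per role. Alternatives varied the window, overlap, q-value, distance, scaling, gene length, background and promoter table.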

Additional observations from a re-analysis of the deposited data

How the results depend on the processing

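The values have no replicate error, since every file pools or averages its libraries, and the smallest effects the depth could show are unknown for mRNA-seq and ATAC-seq. No paired analysis was possible because no column holds a value for a single library, and no replicate could be left out for the same reason. Of 41 alternative values, 37 kept counts within 1.5 times the reported count, or the median ratio within the standard deviation of 0.246 over the genes. Some could hardly leave these ranges, such as counts near all 37 genes or a count of 0 at a stricter limit. The tally is therefore no measure of stability. The 4 values outside the ranges follow from their own construction. Past 2-fold, 0 genes had a higher ATAC-seq score in TSA in place of 3. With a limit of 50 kb the genes were nearest to 82 enhancers in place of 129, and with the starts of all annotated genes to 56. Against genes averaging at least 1 CPM, 15 genes in place of 29 lay above the median level. With windows of 500 or 2000 bases to each side, 16 and 18 genes had a promoter enhancer in place of 15. With the enhancer's centre required inside the window, 13 genes had one. The E2F word was present in 16 of 37 promoters from 500 bases before to 100 after the start (6.17% of all) and in 13 of the 33 genes in the RefSeq promoter table (4.37% of all). With 1 start per gene, RPA3 lost its start peaks, leaving 34 genes in vehicle and 36 in TSA. Score ratios with 1 start per gene were added after the data were seen and again put 3 genes past 1.5.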
